A study of Homo sapiens with 18 samples.

Results

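Densely clustered distal peaks are stretches of open chromatin that lie in crowds. Each had at least 8 other peaks of the table centred within 25 kb of its own centre, lay on an autosome, and was centred more than 1 kb from both ends of every RefSeq protein-coding gene on GRCh38. The rule used position alone, and 2598 of the 71318 peaks met it (3.64%). The remaining 53515 distal autosomal peaks had fewer neighbours. Omni-ATAC-seq, an assay whose transposase inserts sequencing adapters into open DNA, was run on Raji, an established B-cell line from a Burkitt lymphoma. The series concerns auxin-inducible degron loss of SMARCA4 (BRG1), a motor subunit of BAF remodellers. The groups were GFP low cells at 24, 48 and 72 h and GFP high cells at 24, 48 and 72 h, all of 1 cell line and all with the genotype label Smarca4+/+. What GFP stands for, and which of its levels marks cells without the protein, is not in the labels, nor is an auxin dose. The 3 deposited columns of each group lay about equally close to one another, so they were summed to 1 library, which gave 3 libraries per GFP level with 22908652 to 29790483 counts each.

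Enhancers are stretches of DNA away from gene starts where transcription factors bind and raise the transcription of genes that may lie far off. They often come in clusters, and in B cells such clusters lie around genes that set the identity and the survival of the cell. BAF complexes slide and evict nucleosomes and are known for keeping enhancers open. A cluster drawn from accessibility alone is not shown to be an enhancer, and here the peaks were grouped by position only. The label distal also had exceptions: 218 of the 2598 peaks (8.39%) had an annotated RefSeq start of some gene within 1 kb, 147 of them a start of a protein-coding gene that lies inside the gene's outer ends. The peaks otherwise lay inside protein-coding genes in 1744 cases (67.1%), outside but within 50 kb of one in 728 (28.0%), and farther away in 126 (4.85%). They were given to 585 genes.

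No genome sequence was used, so sequences are shown only where an annotated start lay inside a densely clustered peak. A whole RefSeq start window fell within 80 of the peaks. The 250 bases before the start are printed for the 3 starts whose peaks fell most and the 3 whose peaks rose most in GFP low cells, as examples of the DNA at such starts. They come from RefSeq on GRCh38.p14. Capitals mark matches, on either strand, to GGAAGT (the core of ETS family sites), TGANTCA (AP-1), CCAAT (NF-Y) and GGGCGG (the GC box bound by SP1). The octamer ATGCAAAT and TGACGTCA were searched as well and are absent from these 6.
LINC03108, an lncRNA, minus strand, chr1:234980777-234981026, fell: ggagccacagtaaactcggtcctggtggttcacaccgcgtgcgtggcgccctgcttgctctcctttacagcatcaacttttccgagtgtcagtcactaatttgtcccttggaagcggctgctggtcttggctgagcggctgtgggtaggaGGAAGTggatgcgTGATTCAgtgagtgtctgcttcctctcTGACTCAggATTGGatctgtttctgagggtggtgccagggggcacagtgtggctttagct
LOC124901631, an lncRNA inside IKZF1, minus strand, chr7:50393958-50394207, fell: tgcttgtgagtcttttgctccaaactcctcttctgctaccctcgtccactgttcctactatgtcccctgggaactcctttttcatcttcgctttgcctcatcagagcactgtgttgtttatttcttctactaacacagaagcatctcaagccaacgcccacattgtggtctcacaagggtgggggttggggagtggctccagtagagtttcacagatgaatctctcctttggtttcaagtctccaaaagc
PTPN6, plus strand, chr12:6951106-6951355, fell: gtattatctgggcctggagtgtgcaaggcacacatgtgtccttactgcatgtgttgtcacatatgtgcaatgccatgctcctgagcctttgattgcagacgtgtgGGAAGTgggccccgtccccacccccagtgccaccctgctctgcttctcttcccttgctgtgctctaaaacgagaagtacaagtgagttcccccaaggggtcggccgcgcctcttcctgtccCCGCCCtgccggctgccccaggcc
MRPL36, minus strand, chr5:1799838-1800087, rose: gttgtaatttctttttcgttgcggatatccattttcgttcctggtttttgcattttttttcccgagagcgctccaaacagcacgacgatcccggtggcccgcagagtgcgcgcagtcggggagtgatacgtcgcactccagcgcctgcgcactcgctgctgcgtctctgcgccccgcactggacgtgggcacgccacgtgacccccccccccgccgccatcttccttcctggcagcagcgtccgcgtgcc
RASSF1, minus strand, chr3:50337451-50337700, rose: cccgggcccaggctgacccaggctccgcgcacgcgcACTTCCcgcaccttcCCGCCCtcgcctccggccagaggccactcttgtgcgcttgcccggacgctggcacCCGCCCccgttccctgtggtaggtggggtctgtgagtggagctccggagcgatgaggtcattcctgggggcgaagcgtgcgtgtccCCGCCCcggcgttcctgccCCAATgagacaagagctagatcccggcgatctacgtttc
INPP5B, minus strand, chr1:37931792-37932041, rose: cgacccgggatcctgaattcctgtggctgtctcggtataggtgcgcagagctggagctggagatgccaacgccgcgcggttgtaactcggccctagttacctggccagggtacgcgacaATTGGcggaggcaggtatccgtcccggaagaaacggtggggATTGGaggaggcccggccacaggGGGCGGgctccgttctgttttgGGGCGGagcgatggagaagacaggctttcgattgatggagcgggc

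The sequences that fell held 56%, 48% and 59.6% G and C in the order shown, and those that rose 62.4%, 69.6% and 63.2%. The RASSF1 and INPP5B sequences held 3 and 2 matches to GGGCGG, and the PTPN6 sequence held 1. The LINC03108 sequence was the only one of the 6 with TGANTCA, which it held 2 times. Over all windows of 250 bases in the RefSeq table (35116), GGGCGG occurred in 42.6% and TGANTCA in 6.57%. In the 83 windows inside densely clustered peaks these shares were 47.0% and 7.23%. GGAAGT occurred in 30.1% of the 83 windows against 19.5% of all, CCAAT in 30.1% against 32.01%, and the E-box CANNTG, not in capitals, in 72.3% against 61.8%. The octamer ATGCAAAT, bound by OCT factors in B cells, occurred in 6.02% (5 of the 83 windows) against 1.63%. The cyclic AMP element TGACGTCA occurred in 2.41% (2 windows) against 1.65%. These are few windows, and some of the 83 overlap within 1 peak. A base could count towards more than 1 motif. A match describes letters and does not show a bound site.

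Densely clustered peaks were the stronger ones among distal peaks. Their median level was 13.1 CPM (counts scaled to library size by TMM and averaged over the 6 libraries), with quartiles of 8.49 and 21.98 CPM, against a median of 6.24 CPM in other distal peaks and 7.59 CPM in the whole table. They took 4.39%, 4.45% and 4.51% of all counts in the GFP low libraries at 24, 48 and 72 h, against 4.62%, 4.79% and 4.81% in the GFP high libraries. The GFP levels did not overlap. The share averaged 4.45% ± 0.061 in GFP low and 4.74% ± 0.107 in GFP high cells (SD over the 3 times, n = 3 libraries each, change over time included). The median peak held 12.4, 12.5 and 12.6 CPM in GFP low cells and 13.3, 14.2 and 13.9 CPM in GFP high cells, again without overlap. Neither separation was particular to clustered peaks. Other distal peaks took 48.6 to 49.8% of counts in GFP low and 52.9 to 54.6% in GFP high libraries. Their median was 5.84 to 5.96 CPM in GFP low and 6.44 to 6.75 CPM in GFP high libraries. The median over all peaks was 7.17 to 7.31 and 7.91 to 8.08 CPM. These are bulk measurements, in which fewer cells with an open site and less opening per cell cannot be told apart.

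Of 8 B-cell marker genes, 6 had a peak at a gene end (14.5 to 79.0 CPM for the strongest peak of each gene). Gene-end peaks were also found for 5 of 8 T-cell genes, for ITGAM alone of 6 myeloid genes and for COL1A1 and COL1A2 of 6 epithelial and stromal genes. The summed level at B-cell marker ends was 281 to 302 CPM in GFP low and 273 to 286 CPM in GFP high libraries. At T-cell marker ends it was 135 to 148 CPM in GFP low and 180 CPM in each GFP high library, and the part of this difference in the results below was not tested. The myeloid sums were 8.35 to 11.04 CPM in GFP low and 11.9 to 13.5 CPM in GFP high libraries, and the epithelial and stromal sums were 23.6 to 29.3 CPM in GFP low and 24.8 to 26.9 CPM in GFP high libraries. Among the myeloid genes, CD14 and MPO had no peak at all.

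The comparison over times asked which clustered peaks set GFP low cells apart from GFP high cells, with edgeR's quasi-likelihood test on all peaks, a term for time, and a Benjamini-Hochberg adjusted p under 0.05 as the threshold for a call. Called clustered peaks were mostly lower in GFP low cells, and falls of 2-fold or more were fewer among them than among other distal peaks. In GFP low cells 731 of 2598 fell (28.1%), 172 rose (6.62%) and 1695 were not called, against a background over all peaks of 25.4% lower and 13.4% higher. The share that fell was thus near the background, while the share that rose lay under it. Other distal peaks fell in 30.8% and rose in 8.44% of cases. The median log2 change, GFP low over GFP high, was -0.09 for clustered peaks, -0.05 for other distal peaks and 0.03 for all peaks.

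The changes of clustered peaks were narrow, before any allowance for their higher level. Their log2 changes had an SD of 0.33, against 0.45 in other distal peaks, and their 10th and 90th percentiles were -0.58 and 0.23, against -0.82 and 0.33. Called falls had a median of -0.51 in clustered and -0.68 in other distal peaks. A fall of at least 2-fold was called in 38 clustered peaks (1.46%), against 5.07% of other distal peaks, and no clustered peak was called with a rise of that size. The levels of the 3 GFP low and 3 GFP high libraries did not overlap in 774 clustered peaks that were lower in GFP low (29.8%, where all peaks gave 25.1%). They did not overlap in 311 that were higher (12.0%, where all peaks gave 20.8%).

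**Figure D1:**
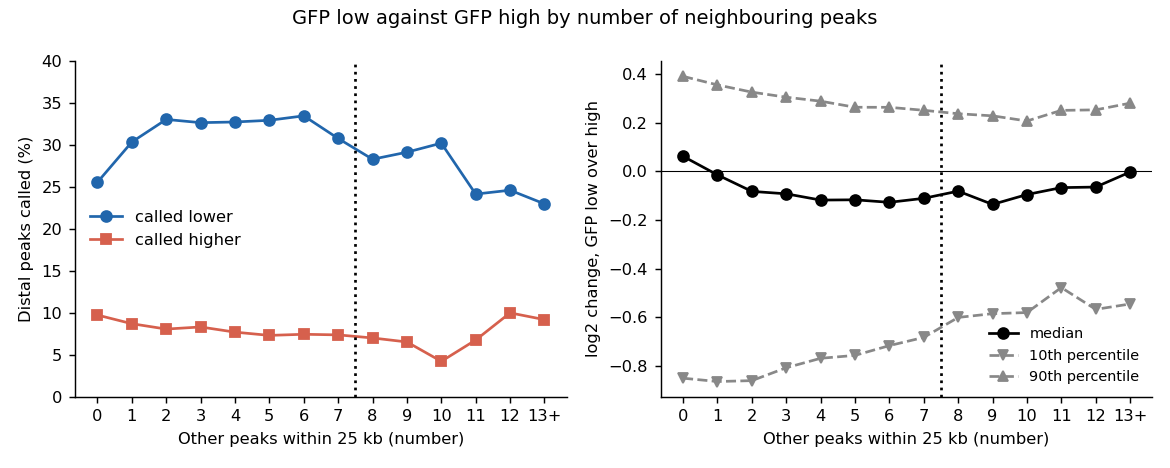
Distal autosomal peaks by the number of other peaks within 25 kb (horizontal axis; 13+ pools 13 and more, and the dotted line marks the rule). Left, the percentage called lower or higher in GFP low cells; right, the median and the 10th and 90th percentiles of the log2 change, GFP low over GFP high. The lower share was 25.6% with 0 neighbours, 33.5% with 6 and 23.0% with 13 or more, and the 10th percentile was -0.85 with 0 neighbours and -0.48 with 11.

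The shares differed little across the rule, as the plot by number of neighbours shows. The 1803 distal peaks just outside it, with 7 neighbours, fell in 30.8% and rose in 7.38% of cases, at a median log2 change of -0.11 and a median level of 11.4 CPM. The 1127 just inside it, with 8 neighbours, fell in 28.3% and rose in 7.01%, at a median of -0.08 and a level of 12.5 CPM. The number of neighbours ran to 17, with a median of 9 over the clustered peaks.

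Stronger peaks are easier to call, so clustered peaks were also set beside other distal peaks of the same strength. Distal peaks were cut into 10 bins of mean CPM. Clustered peaks rose less often than other distal peaks in all 10 bins, and their median log2 change lay lower in all 10. The SD of their log2 changes was smaller in 9 bins and larger in 1, the weakest. In the bin from 4.57 to 5.41 CPM, 40.9% of 110 clustered peaks fell and 1.82% rose, against 31.4% and 6.47% of other distal peaks. In the strongest bin, from 20.03 CPM up, 18.4% of 751 clustered peaks fell and 12.9% rose, against 25.02% and 20.7%. The lower share was above that of other distal peaks in the 7 weaker bins and below it in the 3 strongest. Weighted to the bins of the clustered peaks, other distal peaks fell in 30.4% and rose in 12.7% of cases.

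**Figure D2:**
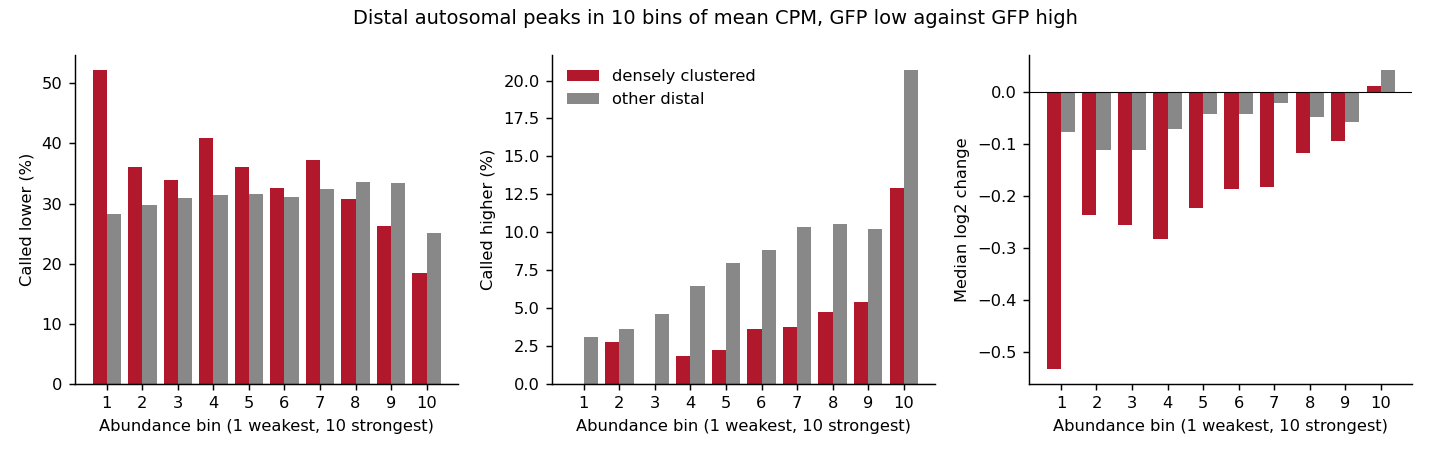
Densely clustered peaks (red) and other distal peaks (grey) in 10 bins of mean CPM, weakest to strongest (horizontal axis), by percentage called lower, percentage called higher, and median log2 change, GFP low over GFP high. Clustered peaks rose less often and had the lower median in every bin, from 23 clustered peaks in bin 1 to 751 in bin 10.

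The counts of calls varied with the libraries and the tool. Without the 72 h pair 18.2% of clustered peaks fell and 1.58% rose (all peaks 18.8% and 3.51%), and 466 of its 472 falls were among the 731. DESeq2 called 3.00% higher (all peaks 5.22%, other distal peaks 2.34%, so that the order of these classes turned), and a fit on the 18 columns as separate libraries called 19.8% (all peaks 29.0%). Scaling by loess against abundance left the clustered peaks near where they were (27.8% lower and 5.97% higher) and moved other distal peaks to 26.4% lower and 13.9% higher, so that clustered peaks then fell more often. That order also turned in the 18-column fits (37.6% of clustered against 36.3% of other distal peaks without a block), with V numbers read as time (39.9% against 37.4%) and without the 24 h pair (26.98% against 26.4%). The order of rises also turned without the 48 h pair (7.70% against 5.99%). The median stayed lower than in other distal peaks in all 10 bins under all 12 other fits. The share of rises stayed below in all 10 bins in 11 of them, and in 8 bins without the 24 h pair. The share of falls was less steady, above that of other distal peaks in 4 bins with DESeq2 and with loess scaling, in 5 without the 48 or the 72 h pair and in 6 without the 24 h pair.

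At single times there was 1 library per group and no test. A difference of at least 2-fold towards lower levels in GFP low cells was seen in 73 clustered peaks at 24 h (2.81%, all peaks 8.16%), 49 at 48 h (1.89%, all peaks 3.85%) and 39 at 72 h (1.501%, all peaks 3.83%). Other distal peaks, weighted to the abundance bins of the clustered peaks, gave 7.01%, 2.58% and 2.80%, which are closer at 48 and 72 h. A 2-fold difference towards higher levels was seen in 1, 0 and 1 clustered peaks at the same times, where the shares of all peaks were 0.212%, 0.226% and 0.0911%. The median difference between GFP low and GFP high was -0.068, -0.126 and -0.095 on the log2 scale. It was -0.105, -0.055 and -0.088 in other distal peaks and 0.009, -0.013 and -0.001 in all peaks. Clustered peaks thus had the higher median of the distal classes at 24 h, the lower at 48 h and a similar one at 72 h. Without the 48 h pair the fitted medians were -0.085 in clustered and -0.081 in other distal peaks. Between 72 and 24 h, 21 clustered peaks differed at least 2-fold within GFP low cells (0.808%, all peaks 1.72%), 12 of them higher at 72 h and 9 lower. Within GFP high cells 1 did (0.0385%, all peaks 0.683%).

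Clustered peaks with an annotated start had more rises than falls. Of the 218 with a RefSeq start within 1 kb, 19 fell (8.72%) and 40 rose (18.3%), with a median log2 change of 0.09. Of the 2380 without one, 712 fell (29.9%) and 132 rose (5.55%), with a median of -0.12. Starts outside crowds went the same way. The 2935 other distal peaks with a RefSeq start within 1 kb fell in 13.3% and rose in 20.1% of cases (median 0.11). Among clustered peaks with a start, the excess of rises was lost with loess scaling, where 21 of the 218 fell and 12 rose (median 0.03). It was also lost without the 72 h pair, where 8 fell and 6 rose. Of the 80 peaks that held a whole start window, 7 fell, 19 rose and 54 were not called. The 250-base windows had a median G and C content of 63.2% where the peak rose, 56% where it fell and 60.8% where it was not called, against 58% over all RefSeq windows.

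Among the starts printed above, the peak at PTPN6, which codes for the SHP-1 phosphatase that restrains B-cell receptor signals, held 14.6, 15.9 and 14.8 CPM at 24, 48 and 72 h in GFP low cells, against 21.6, 19.96 and 21.7 CPM in GFP high cells. The levels did not overlap, and the peak fell by 0.48 on the log2 scale (SE 0.11, edgeR adjusted p = 0.00156). The LINC03108 peak held 7.83, 6.86 and 7.78 CPM in GFP low and 14.2, 12.1 and 12.9 CPM in GFP high cells, a log2 change of -0.80 ± 0.12. The peak of LOC124901631 inside IKZF1 held 6.07, 6.15 and 5.13 CPM in GFP low and 9.46, 7.69 and 8.48 CPM in GFP high cells (-0.56 ± 0.14). All 3 were lower at each time. The peak at RASSF1, which codes for a Ras-association tumour suppressor, held 57.5, 53.7 and 52.6 CPM in GFP low and 39.9, 45.5 and 42.2 CPM in GFP high cells, a log2 change of 0.36 ± 0.08 (edgeR adjusted p = 0.000736). The peaks at MRPL36, of the mitochondrial ribosome (0.36 ± 0.11), and INPP5B, an inositol phosphatase (0.31 ± 0.11), also rose, and the MRPL36 peak had nearly the same level in GFP low as in GFP high cells at 48 h, at 32.2 and 31.96 CPM.

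To see whether crowds moved as units, distal peaks with centres up to 10 kb apart were joined to loci, and the counts of each locus were summed and tested in the same way. The clustered peaks fell into 717 loci with a median of 5 peaks, 3 of them clustered, and a median span of 14.4 kb (at most 80.8 kb). Of these loci 238 fell (33.2%) and 42 rose (5.86%), against 30% and 8.8% of all loci of distal peaks. Loci of at least 3 distal peaks without a clustered one fell in 40.5% and rose in 8.11% of cases. Without the 72 h pair 21.1% of the clustered loci fell and 2.23% rose, with DESeq2 2.51% rose and with loess scaling 12.97% rose.

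Peaks of 1 crowd differed widely in their change. Members called lower and members called higher stood side by side in 75 loci, 315 loci had only falls among their calls, 66 only rises and 261 no called member. In 101 loci every clustered peak fell, and none of these was among the 193 loci with at least 5 clustered peaks. Within those 193 loci the log2 changes of 1545 clustered peaks had an SD of 0.29 around their locus mean. The loci themselves differed with an SD of 0.12, so 15.3% of the variance lay between loci. No share for randomly grouped peaks was set beside it, so it is a description only. The range within a locus was 0.76 at the median (0.09 to 1.62), against a median SE of 0.12 for a single peak. The strongest peak of the locus had a log2 change above the median of its others in 130 of 193 loci (medians 0.03 and -0.11), a count that was 95 with loess scaling.

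Near neighbours were the most alike. Adjacent clustered peaks up to 2 kb apart had log2 changes that correlated at r = 0.49 over 871 pairs. This was r = 0.19 at 2 to 5 kb (471 pairs), r = 0.10 at 5 to 10 kb (500 pairs) and r = 0.20 at 10 to 25 kb (178 pairs), so there was no steady decline. Pairs of distal peaks of which neither was clustered gave 0.52, 0.24, 0.17 and 0.16 at the same distances. These correlations are across peaks of the same 6 libraries and serve as a description. The peaks did not overlap, with centres at least 501 bp apart.

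**Figure D3:**
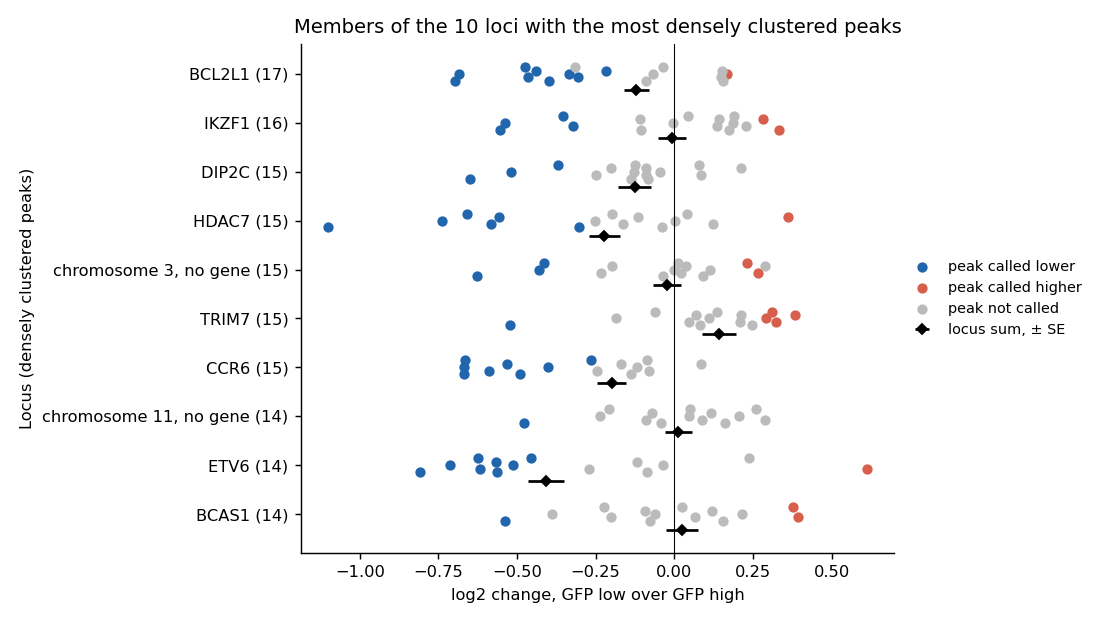
Log2 change, GFP low over GFP high, of each densely clustered peak (circles, coloured by call) in the 10 loci with the most of them, and of the summed locus (diamonds, ± SE). Number of clustered peaks in brackets. Peaks of 1 locus spread from -1.10 to 0.36 at HDAC7 and from -0.81 to 0.61 at ETV6.

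The largest crowd lay in and beside BCL2L1, which codes for the anti-apoptotic protein BCL-XL (chromosome 20, 31646842 to 31723179, 17 peaks, all clustered). Of its peaks 9 fell, 1 rose and 7 were not called, as the plot of the largest loci shows. The peak 18.1 kb inside the gene's end at 31705632 held 20.6, 20.9 and 19.2 CPM in GFP low cells and 34.5, 31.4 and 32.6 CPM in GFP high cells, a log2 change of -0.70 ± 0.10 (SE, edgeR adjusted p = 9.76e-06). The peak nearest the gene's outer start, at 31722679, itself held an annotated start of BCL2L1. It was the strongest of the crowd and the one that rose, with 123.2, 104.5 and 101.5 CPM in GFP low and 96.3, 100.2 and 95.6 CPM in GFP high cells (0.17 ± 0.06, edgeR adjusted p = 0.0260). The gene-end peak next to it, at 31723430, rose by 0.23 ± 0.05. The summed locus held 712, 641 and 645 CPM in GFP low and 745, 691 and 736 CPM in GFP high cells, levels that overlapped. Its log2 change was -0.12 ± 0.04 (adjusted p = 0.0202, but 0.199 with DESeq2 and 0.353 without the 72 h pair).

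BCL2, the sister anti-apoptotic gene, had a locus of 10 clustered peaks of 11 inside it (chromosome 18, 63131006 to 63162776), of which 5 fell and 1 rose. The locus held 135, 147 and 145 CPM in GFP low cells against 173, 166 and 166 CPM in GFP high cells, with no overlap. The log2 change was -0.24 ± 0.06 (edgeR adjusted p = 0.00220). Its peak with the largest fall changed by -0.62 ± 0.12 and the one that rose by 0.36 ± 0.14. PMAIP1, which codes for the pro-apoptotic protein NOXA, had 3 clustered peaks, of which 2 fell. In the list of 12 BCL2 family genes, 3 had clustered peaks, and 15 of their 29 peaks fell (51.7%) and 2 rose, with a median of -0.22, where 25.4% of all peaks fell and 13.4% rose.

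**Figure D4:**
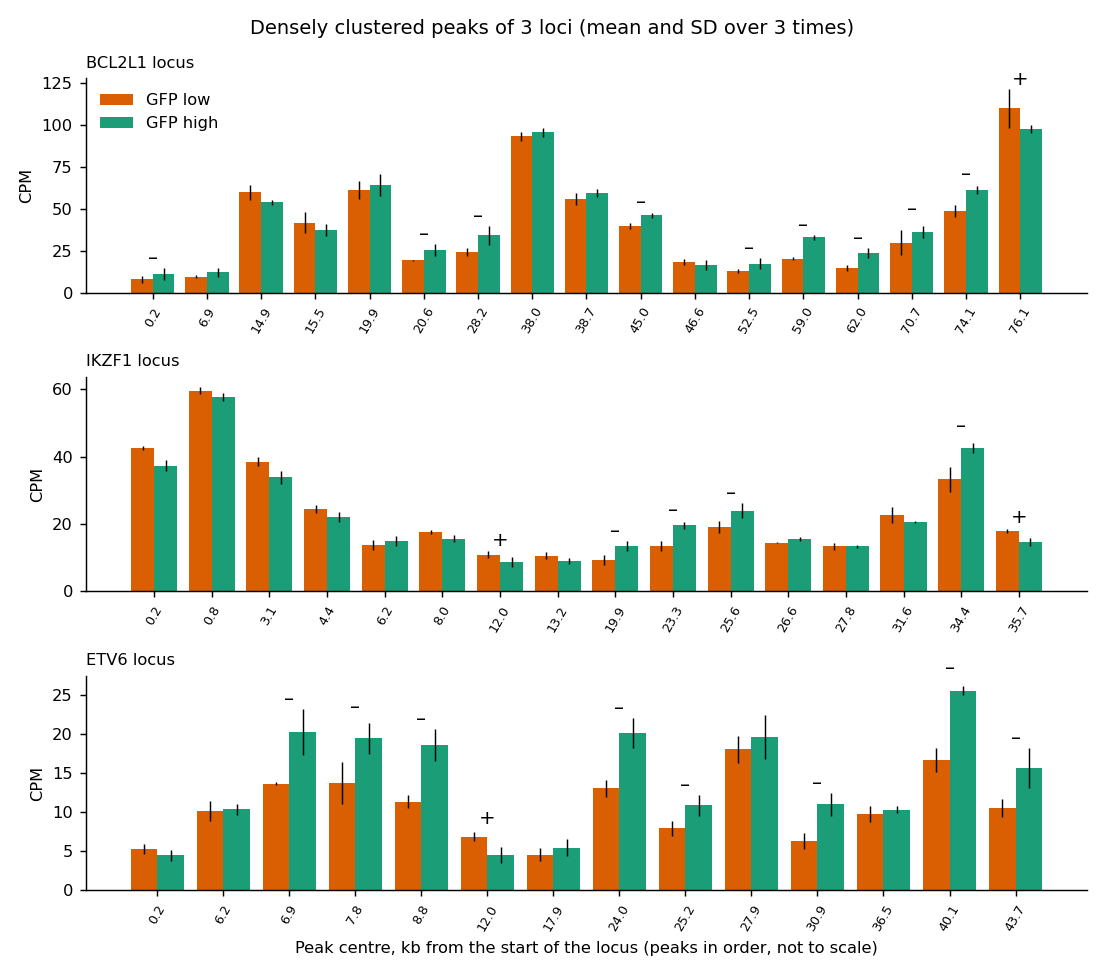
Mean CPM of each densely clustered peak of the BCL2L1, IKZF1 and ETV6 loci in GFP low (orange) and GFP high cells (green), in order along the locus, with the SD over the 3 times (n = 3 libraries each). A minus marks a peak called lower in GFP low and a plus one called higher. Called falls lay among peaks that were not called in each locus.

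Among regulators of B-cell identity, IKZF1 (Ikaros, a zinc finger factor of lymphocytes) held the most crowded peak of all, with 17 neighbours, at chromosome 7, 50327315 to 50327815. That peak held 15.1, 12.2 and 12.9 CPM in GFP low cells and 20.8, 18.6 and 19.4 CPM in GFP high cells, without overlap, and fell by 0.55 on the log2 scale (SE 0.11). Its locus (50304312 to 50340299, 16 peaks, all clustered) had 4 falls and 2 rises. The falls lay between 19.9 and 34.4 kb from the start of the locus, and the 2 rises at 12.0 and 35.7 kb. The summed locus held 362, 369 and 354 CPM in GFP low cells and 368, 363 and 360 CPM in GFP high cells, and the log2 change was -0.01 ± 0.04 (edgeR adjusted p = 0.910). Its sign turned under several other settings.

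ETV6, an ETS family repressor needed for blood formation, had a crowd of 14 peaks inside the gene (chromosome 12, 11722256 to 11766167), of which 8 fell and 1 rose. The locus held 153, 148 and 143 CPM in GFP low cells against 188, 213 and 189 CPM in GFP high cells, and the GFP levels did not overlap. This was the largest change among the 10 most populated loci, at -0.41 ± 0.06 (edgeR adjusted p = 1.36e-05). The peak that fell most, at 11752930, held 5.96, 5.47 and 7.44 CPM in GFP low and 9.63, 12.6 and 10.7 CPM in GFP high cells (-0.81 ± 0.14). The peak that rose, at 11734025, lay between falls on both sides and held 6.22, 7.40 and 6.93 CPM in GFP low and 3.57, 4.30 and 5.66 CPM in GFP high cells (0.61 ± 0.16).

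BACH2, a repressor that holds B cells back from the plasma cell fate, had 12 clustered peaks in 1 locus, of which 2 fell. The locus held 314, 319 and 317 CPM in GFP low and 332, 336 and 342 CPM in GFP high cells, and did not pass the test (-0.09 ± 0.04, edgeR adjusted p = 0.127, but 0.0142 with loess scaling). BCL11A, another B-lineage factor, had 6 clustered peaks, of which 3 rose and none fell. FOXO1 had 7 with no call and FOXP1 had 8, of which 3 fell and 1 rose. In the list of 25 B-cell identity genes, 7 had clustered peaks, and 14 of their 61 peaks fell (23.0%) and 6 rose, with a median of -0.02, against 25.4% and 13.4% of all peaks. In the germinal centre list 5 of 34 peaks fell (14.7%, under the 25.4% of all peaks) and 1 rose. Of the 34, BACH2 gave 12 and CD86 11. The CD86 locus (a costimulatory ligand) held 11 clustered peaks, 3 of which fell, and its sum did not pass (-0.14 ± 0.06, edgeR adjusted p = 0.0619, but 0.0063 without the 24 h pair).

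In the list of migration and adhesion genes most falls lay at a pair of chemokine receptors. CCR6, the receptor for the chemokine CCL20, had 15 clustered peaks in its locus (chromosome 6, 167073639 to 167130464), of which 8 fell and none rose. The locus held 290, 310 and 322 CPM in GFP low cells and 341, 360 and 356 CPM in GFP high cells, without overlap (-0.20 ± 0.05, edgeR adjusted p = 0.00177). CXCR5, the receptor that draws B cells into follicles, had 6, of which 4 fell and 1 rose. Its locus (chromosome 11, 118870019 to 118892862) held 122, 122 and 128 CPM in GFP low and 139, 141 and 146 CPM in GFP high cells (-0.20 ± 0.05, adjusted p = 0.00807, but 0.114 without the 72 h pair). Over the list of 17 migration and adhesion genes, 7 had clustered peaks, and 13 of 34 fell (38.2%, all peaks 25.4%) and 2 rose, with a median of -0.15. CCR6 and CXCR5 gave 12 of the 13 falls, and CXCR4, a chemokine receptor with 6 clustered peaks, had no fall and 1 rise.

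Genes of B-cell receptor signalling were mixed. LYN, a kinase that starts and restrains the signal, had 11 clustered peaks, 8 of which fell and none of which rose (median -0.45). PLCG2, the phospholipase downstream of the receptor, had 15 in 5 loci, with 2 falls and 2 rises. RASGRP3, which activates Ras, had 6, with 1 fall and 1 rise. Over 20 genes, 8 had clustered peaks, and 14 of 45 fell (31.1%) and 3 rose, with a median of -0.14, where 25.4% of all peaks fell and 13.4% rose. LYN gave 8 of the 14 falls. In the list of 19 NF-kB and TNF family genes, 4 of 15 peaks fell (26.7%, near the 25.4% of all peaks) and none rose (median -0.12). The loci of TNFAIP8 and TNFAIP3 did not pass (edgeR adjusted p = 0.165 and 0.134, the TNFAIP3 locus 0.0151 without the 24 h pair). Both were called lower in the 18-column fits and with V numbers read as time. JCHAIN, which joins secreted antibodies, was the 1 gene of the plasma cell list with clustered peaks. Its locus held 102, 108 and 111 CPM in GFP low and 89.4, 101.1 and 92.1 CPM in GFP high cells and rose by 0.19 ± 0.06 (adjusted p = 0.0213, but 0.0708 with DESeq2 and 0.301 without the 72 h pair), although neither of the gene's 2 clustered peaks was called.

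Among BAF subunits, ARID1B, a DNA-binding subunit, had 20 clustered peaks and BCL7A had 4, of which together 6 fell (25%) and 3 rose, shares near the 25.4% and 13.4% of all peaks. The first ARID1B locus (chromosome 6, 156752497 to 156795334) had 12 clustered peaks, with 5 falls and 2 rises, and summed to 461, 453 and 485 CPM in GFP low and 446, 493 and 481 CPM in GFP high cells (-0.02 ± 0.04, edgeR adjusted p = 0.721, but 0.0483 with loess scaling). Its extremes lay on either side of the gene's end. The peak 20.6 kb outside held 2.67, 3.63 and 3.84 CPM in GFP low and 6.36, 7.80 and 6.11 CPM in GFP high cells (-1.001 ± 0.17). The peak 4.52 kb inside held 61.3, 57.6 and 56.7 CPM in GFP low and 42.6, 46.6 and 48.1 CPM in GFP high cells (0.35 ± 0.07). The second ARID1B locus fell by 0.16 (SE 0.06, adjusted p = 0.0443), a call that was lost under each of the DESeq2, loess and time-pair settings. Of its 8 peaks 5 were clustered, and none of these was called.

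Lists of other cell types had few crowds. In the T-cell list TOX and LEF1 had clustered peaks, 13 and 1, of which 4 fell (28.6%) and none rose. The share that fell was near the 28.1% of all clustered peaks, and over all peaks 25.4% fell and 13.4% rose. The larger TOX locus fell by 0.15 (SE 0.05, edgeR adjusted p = 0.0354, but 0.154 with DESeq2, 0.318 without the 48 h pair and 0.125 without the 72 h pair). The LEF1 peak was not called, in a locus named for HADH, whose sum was not called either (0.11 ± 0.06), though it passed with loess scaling (edgeR adjusted p = 0.0481) and without the 24 h pair (0.0302). The myeloid list had no clustered peak. The epithelial and stromal list had 1, near EPCAM, which was not called (0.19 ± 0.11, edgeR adjusted p = 0.161, but 0.0207 with loess scaling).

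HDAC7, a class IIa histone deacetylase of lymphocytes, shared a locus of 15 clustered peaks with VDR, the vitamin D receptor (chromosome 12, 47797390 to 47837169), with 6 falls and 1 rise. The locus held 176, 201 and 197 CPM in GFP low cells and 206, 236 and 228 CPM in GFP high cells, and the GFP levels did not overlap (-0.22 ± 0.05, edgeR adjusted p = 0.00142). The peak that fell most, at 47824077, held 4.39, 5.12 and 4.92 CPM in GFP low and 9.29, 11.7 and 10.04 CPM in GFP high cells (-1.10 ± 0.14). TRIM7, a ubiquitin ligase gene, headed a locus of 15 clustered peaks with 4 rises and 1 fall that rose as a whole (0.14 ± 0.05, adjusted p = 0.0461), a call lost with DESeq2, with loess scaling and without the 24 or 72 h pair. DIP2C and BCAS1 headed loci of 15 and 14 clustered peaks that did not pass (-0.13 ± 0.05 and 0.02 ± 0.05), the DIP2C locus with an adjusted p of 0.0607, against 0.0107 without the 24 h pair and 0.0313 with loess scaling. Calls in both directions also stood in the loci of JADE2, with 4 falls and 2 rises among 13 clustered peaks, and IQSEC1, with 3 and 2 among 12. Their extremes were -0.71 and 0.28 at JADE2 and -0.39 and 0.37 at IQSEC1, and neither sum passed (edgeR adjusted p = 0.254 and 0.133, but 0.0207 and 0.0148 with loess scaling).

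Neither of the crowds without a gene within 50 kb among the 10 largest passed the test as a whole. One, on chromosome 3 (187913439 to 187979917, 15 clustered peaks of 18), lay 168 kb from BCL6, the master repressor of the germinal centre, and 173 kb from LPP. It held 381, 411 and 469 CPM in GFP low and 392, 440 and 446 CPM in GFP high cells (-0.02 ± 0.05, edgeR adjusted p = 0.699), with 3 falls and 2 rises inside it. The other, on chromosome 11 (128259757 to 128302872, 14 peaks), lay 156 kb from ETS1. It held 345, 369 and 385 CPM in GFP low and 338, 369 and 381 CPM in GFP high cells (0.01 ± 0.04), with 1 fall. A sum that did not pass the test is no proof of equal levels, and changes well above its SE could be missed. The DIP2C locus, at -0.13 with an SE of 0.05, did not pass.

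The largest fall of a crowded locus with several peaks was in MOB3B, a gene of the MOB family of kinase activators (chromosome 9, 27377175 to 27393483). Of its 7 clustered peaks 6 fell, by 0.88 to 1.20 on the log2 scale, and the remaining peak was not called (0.10 ± 0.14). The locus held 46.2, 53.8 and 46.4 CPM in GFP low cells against 99.4, 98.4 and 88.1 CPM in GFP high cells, a log2 change of -0.97 ± 0.07 (edgeR adjusted p = 2.94e-08). The other loci with large falls were single peaks, outside IGF2R (-1.29 ± 0.15), SH2D7 (-1.11 ± 0.21) and C5orf15 (-1.01 ± 0.23) and near GGCX and ARHGEF2. Among loci that rose, NABP1, a single-stranded DNA binding protein gene, had a locus of 2 clustered peaks that both rose, while 3 of the gene's 4 others, in another locus, fell and its median over all 6 was -0.24. The rising locus held 32.1, 31.4 and 30.1 CPM in GFP low and 22.8, 24.9 and 23.2 CPM in GFP high cells (0.40 ± 0.09, adjusted p = 0.00159). The loci of BASP1 (0.60 ± 0.12), CFAP418 (0.41 ± 0.11) and TRIM41 (0.32 ± 0.09) also rose. These are single loci and do not stand for the whole gene: of the 9 clustered peaks given to CFAP418, 6 fell and 2 rose (median -0.46), and of the 7 given to BASP1, 2 fell and 1 rose. The loci of H4C11 (0.38 ± 0.14) and SLAMF7 (0.34 ± 0.13) rose with calls that DESeq2 did not make. Without the 24 h pair their changes were 0.20 and 0.17, and the calls were lost (edgeR adjusted p = 0.293 and 0.361). The SLAMF7 locus had 2 peaks, of which 1 was clustered, and that peak was not called itself.

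Single peaks with the largest falls were spread over many genes. A peak 10.1 kb outside KLF10, a TGF-beta induced zinc finger gene, held 4.68, 8.75 and 9.24 CPM in GFP low cells and 18.7, 21.6 and 23.5 CPM in GFP high cells, a log2 change of -1.53 ± 0.13 (edgeR adjusted p = 3.35e-08). A peak inside MAN1A1, a Golgi mannosidase gene, held 6.07, 7.502 and 6.79 CPM in GFP low and 18.8, 18.9 and 16.8 CPM in GFP high cells (-1.42 ± 0.12). Peaks inside IL16, a lymphocyte cytokine gene (-1.30 ± 0.14), outside MMP9, a gelatinase gene (-1.27 ± 0.23), and outside LGMN, a lysosomal protease gene (-1.26 ± 0.19), fell as well. These levels were separate between GFP levels at every time.

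The largest rises were smaller. A peak with no gene within 50 kb, on chromosome 2 at 64922494, held 7.61, 9.53 and 11.7 CPM in GFP low cells and 5.07, 4.81 and 5.62 CPM in GFP high cells (0.89 ± 0.14). A peak inside BIRC3, an inhibitor of apoptosis and NF-kB target, held 11.9, 10.4 and 9.64 CPM in GFP low and 6.62, 6.78 and 7.95 CPM in GFP high cells (0.58 ± 0.13). A peak outside TMSB10, an actin-binding thymosin gene, held 22.8, 23.0 and 19.8 CPM in GFP low and 14.5, 15.3 and 14.6 CPM in GFP high cells (0.56 ± 0.11). Peaks inside SHLD1 (0.62 ± 0.13) and outside H4C8 (0.58 ± 0.13) and IRF1 (0.56 ± 0.19) also rose, the IRF1 peak with an adjusted p of 0.0220 in edgeR and 0.109 in DESeq2. The strongest clustered peak of all, 2.53 kb outside the translation factor gene EEF1A1, held 169, 160 and 163 CPM in GFP low and 156, 154 and 150 CPM in GFP high cells and was not called (0.09 ± 0.04, adjusted p = 0.0911). Its sign turned with loess scaling, to -0.18, and it was called lower there (edgeR adjusted p = 0.00300). In the 18-column fits it was called higher, at 0.11 (edgeR adjusted p = 0.000181 to 0.000299).

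Crowds were last set beside the ends of their own genes. Of 250 genes with at least 4 clustered peaks, 205 also had a peak within 1 kb of a gene end. The median change at gene ends lay above the median of the gene's clustered peaks in 182 genes and at or below it in 23. In 129 genes the gene end was above 0 and the clustered median below 0. Over the genes, the medians were 0.17 at gene ends and -0.13 in the crowd, and 129 of 369 gene-end peaks rose and 19 fell. Over all gene-end autosomal peaks 34.3% rose and 4.31% fell, with a median of 0.18, so the gene ends beside crowds were near gene ends in general. Gene-end peaks that met the neighbour rule themselves (567) fell in 4.41% and rose in 27.3% of cases, a share of falls near that of all gene-end peaks and a share of rises under it. With loess scaling the gene end lay above in 170 of the 205 genes, and the median at gene ends was 0.08, with the same direction and a smaller size. The share of gene-end autosomal peaks called higher varied widely. It was 10.2% with loess scaling, 7.24% without the 72 h pair and 17.1% with DESeq2 (all peaks 13.1%, 3.51% and 5.22%). It was 61.9% in the 18-column fit without a block (all peaks 29.0%) and 38.0% without the 48 h pair (all peaks 12.2%).

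**Figure D5:**
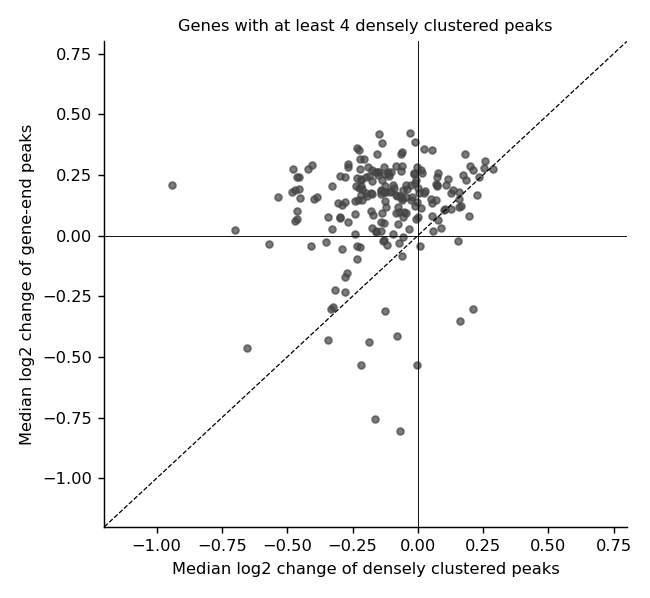
Each point is 1 of 205 genes with at least 4 densely clustered peaks and a gene-end peak. Horizontal axis, the median log2 change of the gene's clustered peaks, GFP low over GFP high; vertical axis, that of its gene-end peaks. Most points (182) lie above the dashed line of equal change.

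Examples follow the same order. At BCL2L1 the 15 clustered peaks given to the gene had a median of -0.22 and the gene-end peak rose by 0.23. At ETV6 the median was -0.48, and both gene-end peaks were not called (0.20 ± 0.10 and 0.16 ± 0.10). At BCL2 the clustered median was -0.08 and the gene-end peak rose by 0.28 ± 0.10. At BACH2 it was -0.11, and both gene-end peaks rose, by 0.28 ± 0.11 and 0.21 ± 0.06. At MOB3B, where the crowd fell most, the gene-end peak was not called (0.21 ± 0.12, edgeR adjusted p = 0.157). At RIPOR2 (-0.23 in the crowd and -0.10 at gene ends) and CD180 (-0.28 and -0.17) both medians were below 0, with the gene end still above. Among the 23 genes in the other order were PHF19, with a clustered median of -0.07 and a gene-end peak at -0.81, and FCMR, at 0.21 and -0.30.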

How the data were processed

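Omni-ATAC-seq counts were analysed. The deposited counts are whole-number raw counts of reads for 71318 peaks of 501 bp in 18 columns, per the file headers. The submitters' processing notes name FastQC, BWA, deepTools, R 4.2.1 and hg38. Their roles and the peak caller were not given in the sources used here. Column names hold a GFP level, a V number (0 to 2) and a D number (1 to 3). D was read as 24, 48 and 72 h, which is an assumption, and V was matched to no sample. Columns of the same GFP level and D number differed by 1.78 to 1.82 times counting noise, those of another D number by 2.20 to 3.47 times and those of another GFP level by 4.36 to 7.00 times, so the 3 columns of a group were summed. No value column was left unused.

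The 6 libraries were tested with edgeR 4.0.16 in R 4.3.3 (robust quasi-likelihood, TMM, terms for time and GFP, residual df of 2), with Benjamini-Hochberg adjustment over all 71318 peaks and a threshold of 0.05. Times served as the replicates, so a GFP effect that changes with time counts as error. Nothing says that libraries came from separate cultures, so p-values measure the spread between these libraries, which may be technical. Levels are TMM-scaled CPM. Distal peaks with centres up to 10 kb apart were joined to loci. Genes and starts come from RefSeq on GRCh38.p14. Alternatives were DESeq2 1.42.0, loess scaling (limma 3.58.1), other filters, other rules for members, and libraries left out. Scripts were tested on simulated data.

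The members and the lists were chosen with earlier results of these data known. Named peaks were the 8 largest called falls and rises, the most crowded and the strongest peak, and the extremes and gene-end peaks of named loci. Named loci were the 10 with most clustered peaks, the 6 largest called changes each way, up to 2 per list and 4 with calls both ways. Genes named outside these rules were chosen after their values were seen.

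V numbers did not pair the columns: deviations of columns with the same V number correlated at -0.005 to 0.018 (45 pairs), and those with other V numbers at -0.015 to 0.011 (90 pairs).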

Additional observations from a re-analysis of the deposited data

Results flagged for a closer look

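At single times, with 1 library per group, 2 named loci were higher in GFP low cells at 1 time and lower at another, beyond their 95% counting intervals, which cover counting error only. The chromosome 3 locus between BCL6 and LPP had a log2 difference, GFP low minus GFP high, of -0.10 at 48 h and 0.072 at 72 h. The PLCG2 locus had one of 0.12 at 24 h and -0.13 at 48 h. The difference between the times was not tested in either locus.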

How the results depend on the processing

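The share of clustered peaks that rose, 6.62%, was 19.8% with the 18 columns as libraries, 19.8% with a replicate block by V number, 19.7% with the block within time, 3.00% with DESeq2, 16.4% with V read as time and 1.58% without the 72 h pair, which gave 18.2% lower. Rising loci made up 20.4% in each 18-column fit, 2.51% with DESeq2, 16.6% with V as time, 12.97% with loess, 9.34% without the 48 h pair and 2.23% without the 72 h pair. Falling loci made up 50.5% with V as time and 21.1% without the 72 h pair. The share at least 2-fold lower was 1.73% (V as time) and 4.30% (6 or more neighbours) at 24 h and 0.847% (loess) at 72 h. The share 2-fold higher at 24 h was 0.0770% with loess and 0% with DESeq2 size factors, V as time, 10 or more neighbours, a 5 kb distance or distal neighbours only. It was 0.0385% (V as time), 0.0770% (loess) and 0.0288% (6 neighbours) at 48 h, and 0%, 0.114% (10 neighbours) and 0.0624% (distal neighbours) at 72 h. Between 72 and 24 h it was 0% (V as time) and 0.343% (10 neighbours) in GFP low, and 0%, 0.201% (6), 0% (10) and 0.0624% (distal) in GFP high. The median was -0.13 with a 5 kb distance and -0.12 without starts, the last chosen after seeing the data. The share of counts in GFP low and GFP high was 10.9% and 11.7% (6), 1.64% and 1.74% (10), 3.34% and 3.65% (5 kb), and 2.75% and 2.97% (distal). Of 56 named loci and peaks, 11 without a call gained one of the same sign in each 18-column fit and with V as time. They were the loci of DIP2C, BACH2, CD86, RASGRP3, TNFAIP8, TNFAIP3, HADH, EPCAM, JADE2 and IQSEC1 and the EEF1A1 peak. The causes were not tested, beyond the fewer samples or other members that a setting uses.

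Leaving out 1 column at a time gave 26.9 to 27.9% lower, 5.85 to 6.74% higher, a median of -0.10 to -0.09, 32.1 to 33.8% falling and 5.30 to 6.56% rising loci. It gave 2.73 to 3.27%, 1.85 to 2.23% and 1.46 to 1.81% at least 2-fold lower at 24, 48 and 72 h, and 0 to 0.115%, 0 to 0.0770% and 0 to 0.0770% higher. Between 72 and 24 h it gave 0.770 to 1.08% in GFP low and 0.0385 to 0.269% in GFP high, with count shares of 4.45 to 4.45% and 4.74 to 4.74%.

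Signs turned for loci that had not passed the test: IKZF1 (0.0106 in the 18-column fits, 0.014 and 0.0013 without the 24 and 72 h pairs, -0.0139 to 0.00056 without single columns), the chromosome 3 locus (0.016), BCAS1 (-0.0027), PLCG2 (0.025) and ARID1B (0.029) without the 48 h pair, and the chromosome 11 locus (-0.052 with loess, -0.00097 to 0.0213 without single columns). The EEF1A1 peak was at -0.18 with loess and was called lower there.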
